A study of Rattus norvegicus with 16 samples.

Results

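Dorsal skin of 6 naïve rats differed in how strongly it expressed the genes of the growing hair follicle, and the 6 arrays were divided here by that level. For each array the log2 values of Krt25 and Krt71, keratins of the inner root sheath, were averaged, and the midpoint between the lowest and the highest naïve value divided the arrays. Naïve replicates 1 and 2 lay above the midpoint of 10.41 and are called hair-high, and naïve replicates 3, 4, 5 and 6 lay below it and are called hair-low. The 2 hair-high and 4 hair-low arrays are part of a series of 16 arrays. The series compared naïve skin with skin at 7 days (5 rats) and 14 days (5 rats) after cutaneous nerves were cut. In this surgery the dorsal skin was opened on the opposite side and folded back. The sampled skin was the area of the cut T9 and T10 nerves, and nerves of other segments were cut as well. All rats were adult female Sprague-Dawley animals, and the naïve rats had no surgery. Each sample was a trimmed piece of dorsal hairy skin that included the cutaneous trunci muscle, a thin sheet fixed to the dermis whose own nerve supply was left intact, and each was measured on 1 Affymetrix rat genome array.

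The arrays of each side were chosen by their measured Krt25 and Krt71 values, so nothing that follows about hair-high against hair-low arrays was tested. Differences between them are given as values of single arrays and as differences between the mean of 2 and the mean of 4 arrays. The labels do not separate the 6 naïve rats in any way except by replicate number. A gene is called higher or lower in the hair-high arrays where the values of the hair-high arrays did not overlap those of the hair-low arrays and the means differed by at least 1 on the log2 scale, which is a doubling. In skin, fewer cells of a type and less RNA per cell cannot be told apart in such data.

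Hair follicles pass through growth (anagen), regression (catagen) and rest (telogen). In growth, matrix cells at the base of the follicle divide and form the hair shaft and the inner root sheath around it, where Krt25 and Krt71 pair into filaments that trichohyalin joins together. In rest the lower follicle is absent and these products are hardly made. In rodents neighboring follicles pass through the cycle together, so that a piece of back skin can be largely in growth or largely at rest.

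In the hair-high arrays Krt25 was at 13.73 and 13.81, and in the hair-low arrays at 6.92, 6.68, 6.21 and 6.16. Krt71 was at 13.69 and 13.81 in the hair-high arrays and at 8.35, 8.09, 8.18 and 7.87 in the hair-low arrays. These genes thus lay near the top of the scale in replicates 1 and 2 and far below in the other naïve arrays. The means of both genes nearest to the midpoint were 13.71 on the upper side and 7.63 on the lower side, so that no naïve array was close to it. All 10 denervated arrays, which were not used to set the division, lay above the midpoint as well. At 7 days the mean of both genes was 13.65, 12.20, 13.45, 12.43 and 13.08 in replicates 1 to 5, and at 14 days it lay between 13.62 and 13.75. The skin at 14 days was thus at or near the level of the hair-high naïve skin. At 7 days replicate 1 lay within the range of the 14 day arrays, and replicates 2 to 5 were spread below that range. Over all genes and arrays the values ran from 3.31 to 14.15, so differences that end near either limit of this scale are compressed.

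**Figure D1:**
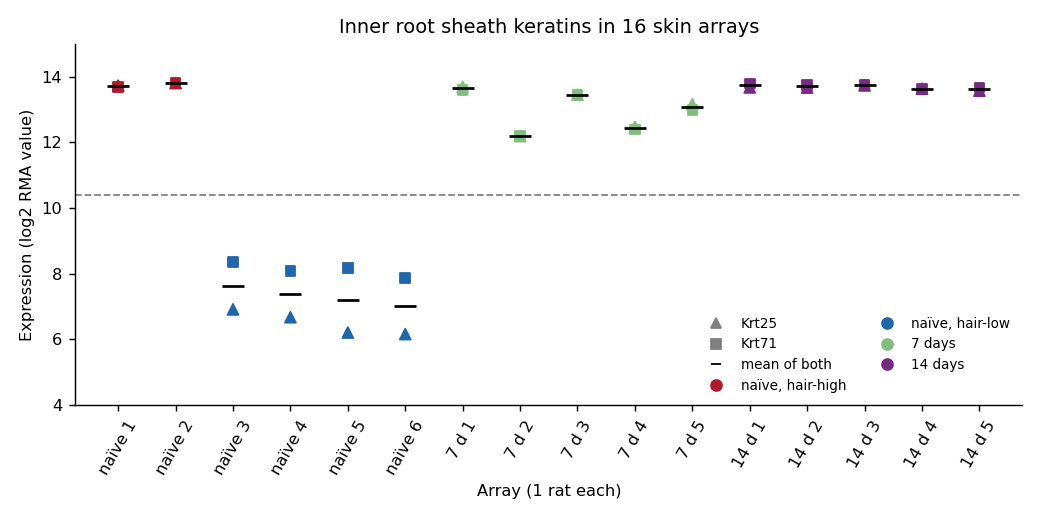
Log2 RMA values of Krt25 (triangles), Krt71 (squares) and their mean (black bars) in each of the 16 arrays, colored by group, with the midpoint of 10.41 as a dashed line. For the mean of both genes, naïve replicates 1 and 2 stand with the 14 day arrays at 13.62 or above, and naïve replicates 3 to 6 lie between 7.02 and 7.63.

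Other hair genes, which did not enter the rule, were set beside the division. They were measured in the same arrays and so are no independent check. The 3 measured hair keratins besides Krt25 and Krt71, namely Krt33b, Krt86 and Krt36, and 2 of 4 keratin-associated proteins were higher in the hair-high arrays. Not called were Krtap13-2l1, at 3.76 and 4.01 against 3.82 to 4.05, and Krtap14l, at 5.36 and 5.50 against 4.85 to 5.13. Krt33b, a keratin of the hair cortex, was at 13.51 and 13.78 in the hair-high arrays and at 7.00, 6.99, 7.74 and 6.76 in the hair-low arrays. Krtap1-5, a keratin-associated protein that cross-links shaft keratins, was at 13.17 and 13.61 against 5.51, 5.43, 5.83 and 5.36. Krt5 and Krt14, the keratins of the basal epidermis, were in contrast high in every naïve array. Krt5 lay between 12.99 and 13.17 and Krt14 between 12.97 and 13.23. Their means were 0.10 and 0.15 above in the hair-high arrays, without overlap, as was so for 49.6% of the genes compared below. The arrays therefore all held keratinocyte RNA and stood apart in the genes of the shaft and its sheath. These 9 keratins and keratin-associated proteins were left out of the counts below.

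Of the other 14208 genes, 451 were higher (3.17% of those compared) and 453 lower (3.19%) in the hair-high arrays. Either direction together made 6.36%, and the values of the hair-high and hair-low arrays did not overlap at any size of difference in 49.6% of genes. Because the rule used these same arrays, nothing is read from these shares. The sizes differed between the directions. The genes that were higher had a median difference of 1.36 and reached 8.50, with 47 genes at 3 or more. The genes that were lower had a median difference of 1.50 in size and reached 3.31, with 1 gene at 3 or more.

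Proteins of the inner root sheath and of the shaft led the genes furthest above in the hair-high arrays. Tchh, the gene of trichohyalin, was at 12.71 and 13.00 in the hair-high arrays and at 5.07, 3.92, 4.22 and 4.21 in the hair-low arrays. Mt4, a metallothionein of stratified epithelia, was at 13.08 and 13.31 against 5.74, 5.32, 5.21 and 5.45, and S100a3, a calcium-binding protein of the hair cuticle, at 13.45 and 13.67 against 6.43, 6.21, 5.47 and 6.89. In each of these genes the hair-high arrays lay close together and far above every hair-low array. Other genes among the 12 furthest above were of several kinds. Gjb2, a connexin that forms gap junctions, was at 12.18 and 12.54 against 6.80, 6.03, 5.47 and 6.82. Bambi, a pseudoreceptor that dampens TGF-β and BMP signaling, was at 10.14 and 10.21 against 5.62, 6.04, 5.00 and 6.14. Chac1, an enzyme that degrades glutathione, was at 12.50 and 12.69 against 7.90, 7.97, 8.95 and 7.69. The efflux transporter Abcg2 stood at 9.69 and 9.54, where the hair-low arrays lay between 5.22 and 5.43. Vsig8 (listed below as a sheath or shaft protein), Sprr1b, Cpm, Efhd1 and Pinlyp complete the 12, with differences from 5.47 down to 4.44.

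The genes furthest below in the hair-high arrays were mostly genes of skeletal muscle. Sln, which encodes sarcolipin, an inhibitor of the calcium pump of the sarcoplasmic reticulum, was at 7.09 and 6.35 in the hair-high arrays and at 7.80, 10.96, 10.71 and 10.66 in the hair-low arrays. Myf6, a myogenic transcription factor of mature fibers, was at 6.62 and 5.79 against 8.88, 9.20, 9.63 and 8.86. Myod1, a myogenic factor as well, was at 5.63 and 5.39 against 7.88, 8.17, 8.66 and 8.24. In Sln, naïve replicate 3 lay closer to the hair-high arrays than to the other hair-low arrays. Mstn, the secreted inhibitor of muscle growth myostatin, was at 6.45 and 5.08 against 7.87, 9.09, 8.79 and 8.87. Prkag3, the regulatory AMPK subunit of fast muscle, was at 7.91 and 7.02 against 9.41, 10.55, 10.90 and 9.78. The exception in tissue was Serpinb10, a protease inhibitor of the serpin family, at 5.36 in both hair-high arrays against 8.34, 7.96, 8.36 and 7.81. Smpx, Neb, Hhatl, Txlnb, Dhrs7c and Lrrc39 complete the 12, with differences of -2.78 to -2.70.

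**Figure D2:**
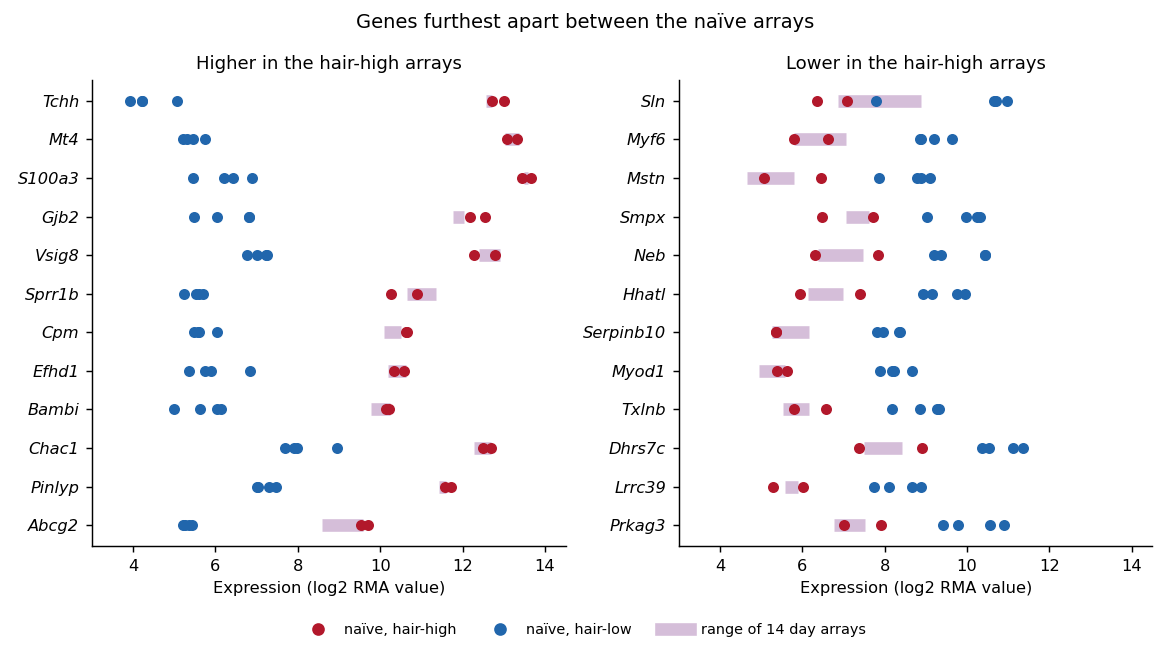
Log2 RMA values of the 12 genes furthest above (left) and the 12 furthest below (right) in the hair-high arrays, keratins and keratin-associated proteins left out. Red points are the 2 hair-high and blue points the 4 hair-low naïve arrays, and purple bars run from the lowest to the highest of the 5 arrays at 14 days. The widest gap is that of Tchh, and in Sln 1 hair-low array, at 7.80, lies beside the hair-high arrays.

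The start regions of these genes were read from RefSeq (assembly GRCr8), where 374 of the 451 higher genes and 374 of the 453 lower genes had a promoter. In the 250 bases before the start, on both strands, the letters TATAAA were found in 11.2% of the higher, 11% of the lower and 8.06% of all genes measured. The letters CAGCTG, an E-box of the kind myogenic factors bind, were found in 13.9%, 19% and 12.8%, and the letters CTATTT, part of the sites of MEF2 factors, in 5.35%, 14.2% and 7.32%. CTATTT and TATAAA can overlap where they lie on opposite strands. The letters were chosen after the values were seen, and a match is a description of the sequence. The 60 bases before the start of 3 genes furthest above and of 1 gene furthest below are shown, because the former hold TATAAA and the latter CAGCTG at a similar distance from the start. Capitals mark these letters, which begin 30 bases before the start in Tchh (chr2:181787049-181787108, plus strand), 37 in Mt4 (chr19:10871832-10871891, minus strand), 35 in Sprr1b (chr2:180706356-180706415, minus strand) and 39 in Prkag3 (chr9:83753630-83753689, minus strand). The stretch of Mt4 also holds the letters of the E-box, left in lower case.
Tchh: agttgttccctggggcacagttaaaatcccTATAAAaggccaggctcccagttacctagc
Mt4: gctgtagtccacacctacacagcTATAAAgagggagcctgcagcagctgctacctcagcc
Sprr1b: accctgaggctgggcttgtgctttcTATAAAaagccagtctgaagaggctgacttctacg
Prkag3: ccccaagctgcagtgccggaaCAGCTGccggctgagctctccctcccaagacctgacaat

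Gene lists for the cells and pathways of this tissue were then compared. Their counts stand beside the 3.17% of all genes compared that were higher and the 3.19% that were lower. For the list medians, the median difference of all genes, -0.01, serves as the reference. The median difference was furthest above it in the proteins of the inner root sheath and hair shaft other than keratins, at 3.68, and 9 of 11 measured members were higher and none lower. The enzymes Padi1 and Padi3, which turn arginine into citrulline in trichohyalin and other proteins, were higher by 3.68 and 3.92, and Crym, a thyroid hormone-binding protein of the follicle, by 3.27. Tgm3, a transglutaminase of the sheath and of the epidermis, differed by 0.45. Of 15 follicle transcription factors 8 were higher, with a median of 1.29. Lef1, through which Wnt signals act on the matrix, was at 9.57 and 9.60 in the hair-high arrays and at 5.83, 5.99, 5.56 and 5.59 in the hair-low arrays. Msx2, a homeobox factor of the matrix, was at 8.50 and 8.58 against 5.16, 5.10, 5.25 and 5.33. Dlx3 and Foxe1 were higher by 3.43 and 2.84. Foxn1 and Hoxc13, factors that act on shaft keratin genes, had no probeset with 1 gene.

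The secreted signals of the hair cycle lay in both directions. Of 15 measured signals of growth 3 were higher and none lower, and 1 of those 3 is Bambi. The median was 0.26, and 0.45 or 0.44 without naïve replicate 3 or 6. Wnt5a was at 6.66 and 6.69 in the hair-high arrays and between 3.77 and 5.10 in the hair-low arrays, and Gli1, a target of hedgehog signaling, was higher by 1.12. Shh, the hedgehog ligand of the matrix, lay between 5.07 and 5.28 in all naïve arrays, and its values overlapped. Of 16 signals of rest and regression 4 were lower and 3 higher, at a median of -0.06. Fgf18, a growth factor known to hold follicles at rest, was at 5.35 and 4.92 in the hair-high arrays and at 6.26, 6.81, 7.25 and 6.91 in the hair-low arrays. Grem1, a BMP antagonist, was at 4.61 in both hair-high arrays against 5.68, 7.36, 7.53 and 6.84, and Nfatc1, a factor of quiescent stem cells, was lower by 1.61. The prolactin receptor Prlr was lower as well. Fgf5, the signal known to end growth, was in contrast higher, at 5.95 and 5.63 against 4.71, 4.81, 4.67 and 4.74, and so were Bmp4, by 1.36, and Sfrp1, a secreted Wnt inhibitor. Bmp2, at 7.92 and 7.68 against 8.24, 8.09, 8.89 and 7.78, overlapped.

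The cells that make and surround the follicle differed by list. Of 27 genes of DNA replication and mitosis 8 were higher and none lower, at a median of 0.89, with the mitotic kinase Cdk1 at 8.39 and 8.13 in the hair-high arrays against 6.76, 6.69, 6.99 and 6.45. Mki67, a marker of dividing cells, was at 8.96 and 8.76 against 7.63, 7.89, 7.90 and 7.17, and Ccnb2, Ube2c and Ccnb1 were higher by 1.57, 1.43 and 1.39. Top2a differed by 0.96 and so fell just short of 1. Of 10 follicle stem cell genes only Lgr5, a receptor of cells of the lower follicle, was higher, by 1.02, and Col17a1, Fst and Lgr6 lay 0.94, 0.92 and 0.88 lower without reaching 1. None of the 11 dermal papilla genes was higher or lower. The lists of the sheath and shaft, the transcription factors and mitosis thus stood above the median of all genes, and those of stem cells and papilla close to it.

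In the epidermis list, 5 of 14 genes were higher and none lower, at a median of 0.54. They were genes of late differentiation. Sprr1b, a precursor of the cornified envelope, was at 10.89 and 10.27 in the hair-high arrays against 5.24, 5.60, 5.70 and 5.53. Ivl, which encodes involucrin, was at 9.19 and 9.09 against 8.37, 7.16, 5.42 and 7.82, so that its hair-low arrays were themselves spread widely. Sprr1a, Dsc1 and Cdsn were the others. Krt10, the keratin of the layers above the basal one, overlapped. Of the 11 sebaceous gland genes Fads2, a fatty acid desaturase, was higher by 1.22 and Cidea, a lipid droplet protein, lower by 1.04.

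Among enzymes, 5 of 15 genes of polyamine, arginine and urea cycle metabolism were higher, while the median of the list was 0.08. Ass1, which makes argininosuccinate from citrulline, was at 10.93 and 10.67 in the hair-high arrays and at 6.91, 6.43, 6.76 and 6.83 in the hair-low arrays. Sat1, an enzyme of polyamine breakdown, was higher by 2.76, Arg1, which turns arginine into ornithine, by 2.44, and Odc1, which starts polyamine synthesis from ornithine, by 1.42. Asl, the next enzyme after Ass1, was the fifth. Of 17 genes of retinoid handling 5 were higher and 1 lower, at a median of 0.52, or 0.30 without naïve replicate 5. Aldh1a3, which makes retinoic acid, was at 8.19 and 8.23 against 5.78, 4.49, 5.14 and 4.89, and Stra6, a receptor that takes up retinol, at 8.26 and 8.04 against 5.74, 5.53, 5.68 and 5.79. Lrat, which esterifies retinol, was higher by 2.24. Aldh1a1, which makes retinoic acid too, went the other way, at 8.14 and 7.82 against 8.91, 10.31, 10.32 and 10.29.

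The melanin synthesis genes did not follow the division. Dct, an enzyme of melanin synthesis, was at 10.24 in naïve replicate 2 and at 7.07 in naïve replicate 1, both hair-high, and at 7.49, 5.73, 5.91 and 6.18 in the hair-low arrays. Tyrp1 was at 8.41 in replicate 2 and at 4.70 in replicate 1, which lay inside the hair-low range of 4.69 to 5.12. Tyr, the enzyme that limits melanin synthesis, was at 7.69 and 5.16 in replicates 2 and 1, and its hair-low arrays lay between 4.84 and 5.11. By the rule Tyr counts as higher, but this rests on replicate 2. In the denervated skin the same genes were high in some arrays and low in others of each time. Dct was at 6.69, 6.37, 10.21, 8.74 and 10.02 at 7 days and at 9.95, 10.11, 7.00, 9.91 and 6.79 at 14 days, in the order of the replicates, although all arrays at 14 days had the same level of Krt25 and Krt71. The list member furthest apart without overlap was Gpnmb, a glycoprotein of melanosomes that macrophages express as well, at 11.32 and 11.59 against 9.78, 8.68, 8.22 and 9.21. Kit, a receptor of pigment and mast cells, and Mitf, the pigment cell transcription factor, differed by 0.85 and 0.63. Both did not overlap either, as was so for 49.6% of the genes compared. The list had 10 measured members, a median difference of 1.14, and 2 members higher, Tyr and Gpnmb. Without replicate 2 its median was 0.23 and without replicate 1 it was 2.66.

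**Figure D3:**
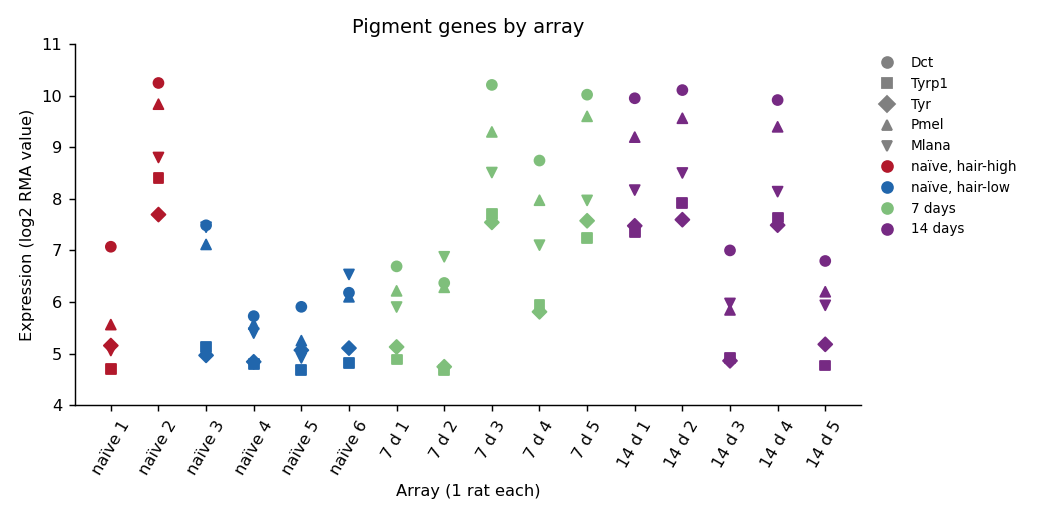
Log2 RMA values of 5 pigment genes in each of the 16 arrays, colored by group. Naïve replicate 2, the 7 day replicates 3 and 5 and the 14 day replicates 1, 2 and 4 hold Dct at 9.91 or above, while naïve replicate 1, also hair-high, holds it at 7.07.

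Muscle genes were lower in the hair-high arrays as a list. Of 24 genes of the sarcomere and of excitation and contraction, 16 were lower and 1 higher, at a median of -1.35. Neb, which encodes the thin filament protein nebulin, was at 7.84 and 6.32 in the hair-high arrays and at 9.20, 10.43, 10.44 and 9.36 in the hair-low arrays. Cacna1s, the voltage sensor of the muscle membrane, was at 8.87 and 7.83 against 10.39, 10.77, 11.01 and 10.37, and Actn2, an actinin of the Z disc, was lower by 2.22. The defining markers were near the top of the scale in every naïve array and did not overlap, as was so for 49.6% of the genes compared. Acta1, skeletal actin, was at 13.72 and 13.44 against 13.92 to 14.01. Ckm, muscle creatine kinase, was at 13.37 and 12.78 against 13.76 to 13.97. The 1 member that was higher was Tpm1, a tropomyosin that many cell types express. The list score, for which every gene was centered on its mean of the 16 arrays and the members were averaged, was -0.08 and -0.75 in the hair-high arrays and between 0.69 and 1.04 in the hair-low arrays. The amount of muscle in each sample was not stated in the labels or the methods, and its part in the differences of other genes was not tested. The median of the 27 genes of electron transport and ATP synthase was -0.37, and none of them was called. The median of the 16 adipocyte genes was 0.27, and -0.18 without naïve replicate 5, with 3 of them lower and none higher. The 3 were Slc2a4, the insulin-responsive glucose transporter of fat and muscle, by 1.62, Gpd1 and Plin4. Adipoq, which encodes adiponectin of fat cells, overlapped, at 9.79 and 10.36 against 10.57, 9.44, 7.12 and 10.39.

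The remaining lists had few members called. Over all genes compared 3.17% were higher and 3.19% lower, so 1 called member is not read as a result about its list. None of the 21 macrophage, 16 endothelial or 6 blood cell genes was higher or lower, and the medians were 0.05, -0.34 and 0.00. The macrophage marker Cd68 was at 7.81 and 7.83 in the hair-high arrays and at 8.99, 7.02, 7.05 and 8.07 in the hair-low arrays, on both sides of the former. Of the 21 genes of other leukocytes, Ccl27, a chemokine that keratinocytes make, was lower by 2.18 and S100a8 by 1.30. Of 15 Schwann cell and nerve genes 1 was lower, Scn7a, a sodium channel of Schwann cells and other cells, at 6.22 and 5.66 against 7.51, 8.71, 8.08 and 8.46. Of 21 interferon response genes 1 was lower, Cxcl9, a chemokine that interferon induces. Of 16 clock genes 3 were lower, Npas2, Bhlhe41 and Nr1d1, by 1.10, 1.03 and 1.03. The median of 21 genes of collagens and matrix was 0.42, 0.83 without naïve replicate 3, 0.66 without 6 and 0.0049 without 5. Of them 2 were higher, Tnc, which encodes tenascin C, at 9.62 and 9.49 against 7.76, 6.64, 6.36 and 6.72, and Thy1. Col1a1, the main collagen of the dermis, overlapped, at 13.59 and 13.72 against 13.80, 12.56, 11.24 and 13.73.

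**Figure D4:**
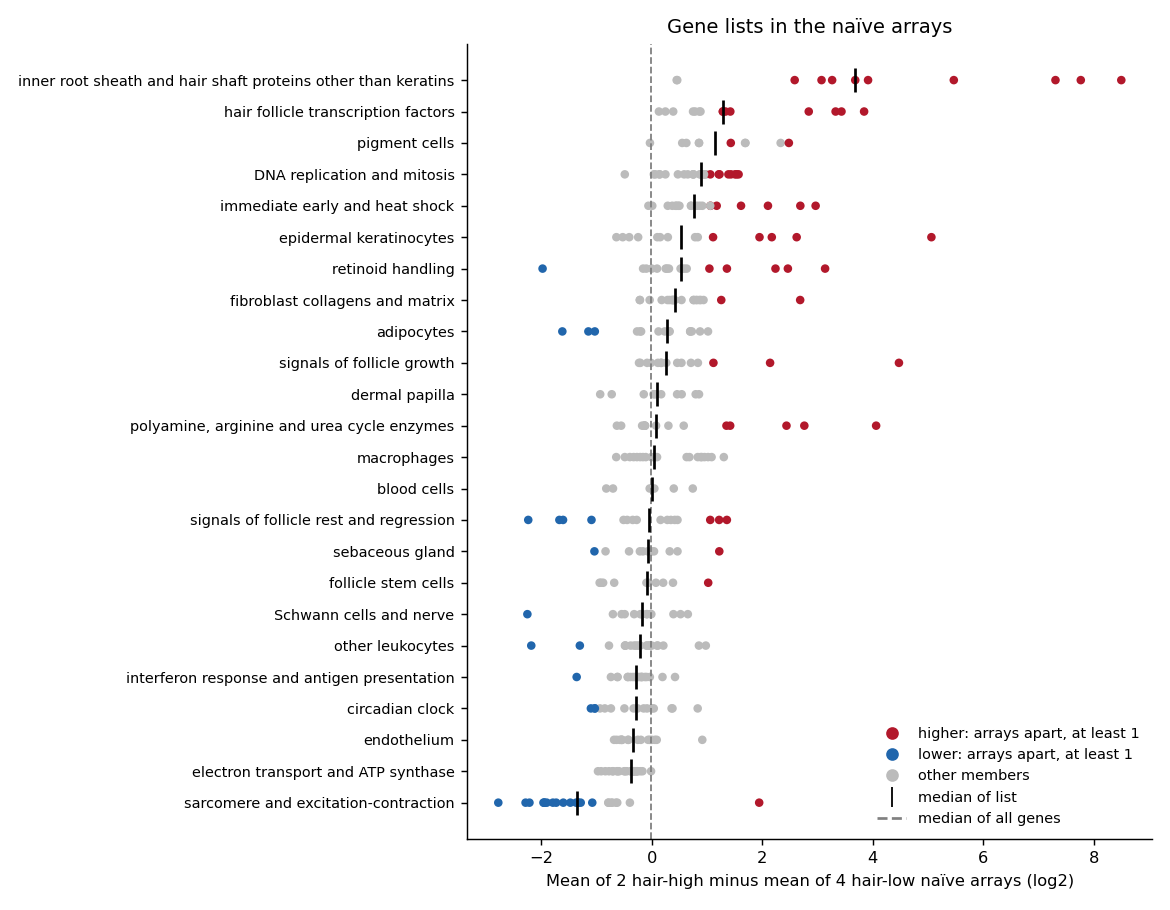
Difference between the mean of the 2 hair-high and the mean of the 4 hair-low naïve arrays (log2) for each measured member of 24 gene lists, with list medians as black bars and the median of all genes, -0.01, as a dashed line. Red and blue points are members whose arrays did not overlap and whose means differed by at least 1. Sheath and shaft proteins are at the top with a median of 3.68, and sarcomere genes at the bottom with -1.35.

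The hair-low arrays were not alike. Replicates 4 and 5 had list scores of -1.42 and -2.21 for collagens and matrix and of -1.25 and -1.58 for macrophages, whereas replicates 3 and 6 had 0.14 and -0.36 for the former and 0.52 and -0.39 for the latter. Immediate early genes, which cells switch on within minutes of a stimulus, were lowest in the same arrays. Of 20 genes of this response and of heat shock 6 were higher in the hair-high arrays, at a median of 0.76. Fosb was at 9.79 and 10.31 in the hair-high arrays, at 8.39 and 8.81 in hair-low replicates 3 and 6, and at 5.37 and 5.76 in replicates 4 and 5. Egr1 was at 11.67 and 11.71, then at 10.85 and 10.43, and at 8.40 and 8.68 in the same order, and Atf3 at 9.55 and 9.66, at 8.07 and 7.20, and at 6.27 and 6.13. The control probesets for RNA integrity gave no single direction. The beta-actin probesets for the 3′ end and the middle of the transcript differed by 0.176 and 0.228 in the hair-high arrays and by 0.519, 0.962, 1.20 and 0.848 in the hair-low arrays, with replicates 4 and 5 the highest. Other pairs of control probesets went the other way or overlapped. The 3′ end of beta-actin exceeded its 5′ end by 0.614 and 0.690 in the hair-high arrays and by 0.578, 0.499, 0.142 and 0.645 in the hair-low arrays, with replicate 5 the lowest. For Gapdh the 3′ end differed from the middle by -0.016 and 0.024 in the hair-high arrays and by -0.085 to -0.018 in the hair-low arrays, and from the 5′ end by 0.290 to 0.322 and by 0.293 to 0.338. The part of RNA integrity in the division was not tested. Without replicates 4 and 5, 387 genes were higher and 411 lower, and the median of the sheath and shaft list was 3.64 and that of the sarcomere list -1.25. The medians of the collagen, macrophage and adipocyte lists, 0.42, 0.05 and 0.27 over all naïve arrays, then turned to -0.52, -0.53 and -0.44. Those of the immediate early, epidermis and retinoid lists kept their sign and were 0.47, 0.24 and 0.29, and that of the endothelium list was -0.65.

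The denervated arrays were placed against the naïve ones gene by gene, on a scale where 0 is the mean of the hair-low arrays and 1 that of the hair-high arrays. Both ends of the scale are the arrays that chose the genes, so these positions describe levels and are no test. For the 451 genes higher in the hair-high arrays, the median position at 14 days lay between 0.87 and 0.95 in the 5 arrays. At 7 days it was 0.83, 0.27, 0.67, 0.26 and 0.65 in replicates 1 to 5, so that replicates 2 and 4, the lowest in Krt25 and Krt71, were also nearest to the hair-low arrays. For the 453 genes lower in the hair-high arrays, the median position was between 0.99 and 1.12 at 14 days and was 1.01, 0.42, 0.90, 0.68 and 0.67 at 7 days. Naïve replicate 1 was at 0.86 and replicate 2 at 1.14 in these genes, and the hair-low arrays ran from -0.18 to 0.23, with replicate 3 the highest. Across 14217 genes, the hair-high arrays correlated with the arrays at 14 days at 0.987 to 0.992 and with the hair-low arrays at 0.912 to 0.957. These correlations are across genes, which are not independent replicates, and describe the arrays.

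**Figure D5:**
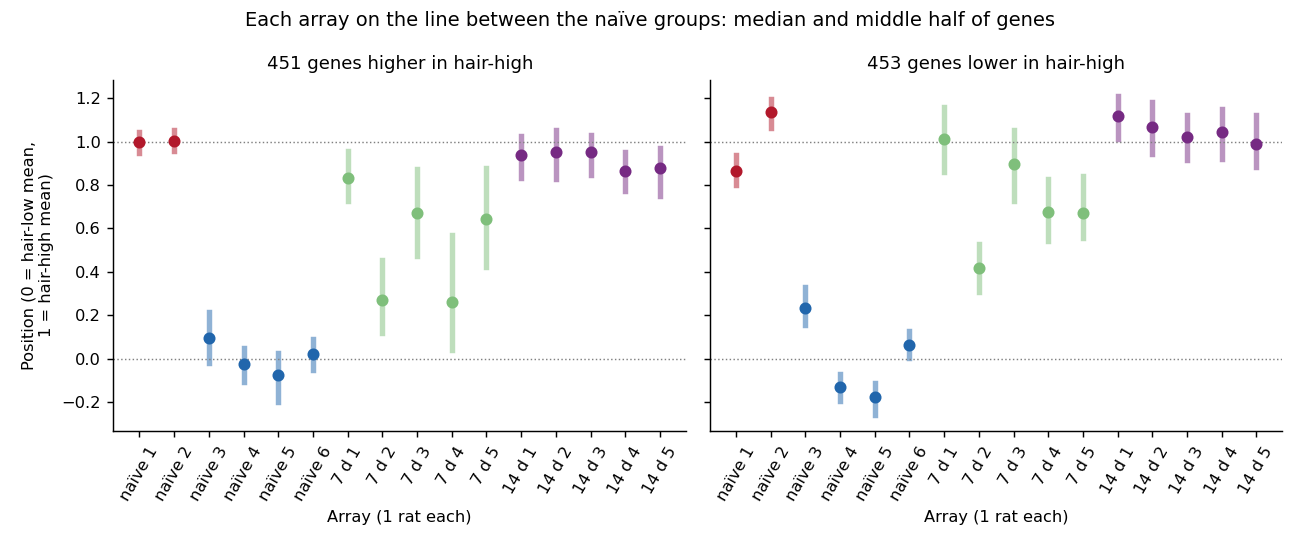
Position of each array between the mean of the hair-low (0) and of the hair-high naïve arrays (1), for the 451 genes higher (left) and the 453 genes lower (right) in the hair-high arrays. Points are medians over genes and bars run from the lower to the upper quartile. All 14 day arrays lie at 0.87 or above, and the 7 day arrays spread from 0.26 to 1.01.

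A few genes of the division were not at the hair-high level at 14 days. Of the 451 higher genes 8 had a mean position under 0.5 at 14 days, and 384 one over 0.75. Chosen after their values were seen, these 8 were Atf3, Jund, Osgin2, Nr4a3, Ier2, Fosb, Cobll1 and Zfp36, among them the immediate early genes Atf3, Nr4a3, Ier2, Fosb and Zfp36. Atf3 was between 7.02 and 8.16 at 14 days except in replicate 5, where it was at 6.26. Of the 453 lower genes 5 were under 0.5, Fam111a, Coro1a, Pla2r1, Acsm1 and Pla2g4e. Coro1a, an actin-binding protein of leukocytes, was at 6.15 and 6.05 in the hair-high arrays, at 7.92, 6.86, 6.41 and 7.27 in the hair-low arrays and between 6.64 and 7.07 at 14 days.

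The denervated arrays, which the rule did not use, allowed 1 test. Skin at 14 days was compared with skin at 7 days by limma over all 14217 genes, with Benjamini-Hochberg adjustment and a threshold of 0.05. By this test 13.2% of all genes rose and 17.7% fell from 7 to 14 days, 31% in either direction. Of these calls 42.7% were increases, against 61.4% after the median of each array was subtracted, and without 14 day replicate 3 the number of genes that rose was 1095 in place of 1882. Of the 451 genes higher in hair-high naïve skin 223 (49.4%) rose, 9 fell and 219 did not pass. Of the 453 genes lower in hair-high naïve skin 220 (48.6%) fell, 1 rose and 232 did not pass. These were 11.8% of all genes that rose and 8.72% of all that fell. The median change was 0.53 in the former genes and -0.48 in the latter, against -0.01 over all genes. In this comparison time after denervation and the hair level cannot be told apart, since Krt25 and Krt71 were spread at 7 days and uniformly high at 14 days. With all 16 arrays in the model, which adds the spread of the divided naïve arrays to the error, 43 of the former rose and 18 of the latter fell. The p-values measure the spread between these arrays, which are from different rats.

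Among the genes furthest apart in naïve skin, Sprr1b had the largest change between the times. It was at 9.32, 5.43, 6.11, 5.48 and 10.79 at 7 days and between 10.64 and 11.35 at 14 days, a log2 change of 3.53 (standard error 0.96, limma adjusted p = 0.0216). Its levels at 7 days thus fell into high values in replicates 1 and 5 and values at or near the hair-low naïve level in the others. Abcg2 was at 7.79, 6.50, 5.29, 5.58 and 8.09 at 7 days and rose by 2.38 (standard error 0.51, limma adjusted p = 0.00951), and Stra6, at 7.14, 5.53, 5.30, 5.40 and 8.11, rose by 2.07 (standard error 0.49, limma adjusted p = 0.0137). Mt4, in contrast, was graded at 7 days, at 13.08, 9.93, 12.22, 10.09 and 12.64, with all arrays above the hair-low naïve arrays, and did not pass (log2 change 1.62, limma adjusted p = 0.0524), but passed without 7 day replicate 1 (limma adjusted p = 0.0175) or 5 (limma adjusted p = 0.0327). Tchh, between 11.14 and 12.65 at 7 days and between 12.56 and 12.72 at 14 days, rose by 0.79 (limma adjusted p = 0.0371), a call that was lost when any 1 of 8 of the 10 arrays was left out. The exceptions were 7 day replicates 1 and 3. Of the muscle genes, Smpx fell by 1.06 (standard error 0.17, limma adjusted p = 0.00377) and Myod1 by 1.01 (standard error 0.20, limma adjusted p = 0.00719). Mstn was already between 4.54 and 6.54 at 7 days, below every hair-low naïve array, and its change of -0.27 did not pass (limma adjusted p = 0.614). With all 16 arrays in the model, of the genes of this paragraph called here Stra6 passed and Sprr1b, Abcg2, Tchh, Smpx and Myod1 did not.

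The counts by list are to be read against the 13.2% of all genes that rose and the 17.7% that fell. By list, 8 of the 11 sheath and shaft proteins rose from 7 to 14 days and none fell, at a median change of 1.50. Of the 24 sarcomere genes 10 fell and none rose. Of the 15 transcription factors 2 rose and 1 fell, shares near or below those of all genes, and of the 15 growth signals 5 rose. Other lists did not move between the times as they lay in naïve skin. None of the 27 genes of DNA replication and mitosis rose and 3 fell, fewer than the share of all genes, although 8 of them were higher in hair-high naïve skin. Cdk1 was at 8.55, 7.51, 8.91, 8.57 and 8.83 at 7 days, where replicate 2 was low and the others were above the hair-high naïve arrays, and its change of -0.34 did not pass (limma adjusted p = 0.26). Without replicate 2 it fell by 0.58 (limma adjusted p = 0.00798). Of the 21 macrophage genes 13 fell and of the 21 collagen and matrix genes 10 fell, and none of either rose. Tnc, higher in hair-high naïve skin, fell by 1.38 (standard error 0.35, limma adjusted p = 0.0168), from levels of 10.21 to 12.24 at 7 days to levels of 9.36 to 9.83 at 14 days, and did not pass with all 16 arrays in the model (limma adjusted p = 0.115). Of the retinoid genes 5 rose and 1 fell.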

How the data were processed

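The authors hybridized skin RNA to Affymetrix rat genome arrays, with 6 arrays from naïve rats, 5 from rats at 7 days and 5 from rats at 14 days after denervation. The deposited values are log2 expression values that the authors made by robust multi-array averaging (RMA), which corrects background, equalizes the distributions of the arrays and summarizes the probes of a probeset. It sets the arrays to 1 common distribution, so changes in total RNA cannot be seen, and it compresses very low and very high values. R 3.0.1 is named in the submitters' notes. No source used here gives the RMA software's version. Arrays have no read depth, and their number limits the precision. No batches are given in the labels.

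Of 31099 probesets, 57 controls, 9780 without a gene and 436 with several genes were left out, as in the paper's methods, and the other 20826 were collapsed to the median for each of 14217 genes, 4525 of which had more than 1 probeset. For 20758 probesets the current symbol was taken from RefSeq (GRCr8) by Entrez identifier. The division, the members and the gene lists (24 lists with 463 entries, 67 of them without a measured gene) were chosen with earlier results of these data known, and no value supports the division independently. The groups come from the labels, and the division only from Krt25 and Krt71.

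Skin at 14 and 7 days was compared in R 4.3.3 with limma 3.58.1 (a mean for each group of the 10 denervated arrays, eBayes, Benjamini-Hochberg adjustment over all genes, threshold 0.05), and the code was tested on simulated data. Naïve arrays entered this fit only in the alternative with all 16 arrays, and hair-high and hair-low arrays were not tested against each other. Named genes are Krt25 and Krt71, the 12 genes furthest apart in each direction that do not overlap, are no keratin or keratin-associated protein and reach a mean of 6 in the higher group, up to 4 members of each list by the same rule, and a fixed set of skin, follicle and muscle genes. Others are named where a count called for them, and were chosen after their values were seen. The alternatives changed the scaling, the choice of probeset, dim genes, the size of difference, the arrays, moderation, a replicate block and the marker. Samples with the same replicate number at 7 and 14 days had deviations from their group means that correlated between -0.226 and 0.29. These values cannot show whether the samples were paired, and the main fit did not pair them.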

Additional observations from a re-analysis of the deposited data

Results flagged for a closer look

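A single array stood far from the others of its group in 16 of 444 sets of values. This is under 1 in 20 of the sets. The sets share arrays and genes, so they are not independent, and their number was not tested against chance. The values below only describe single arrays. Among the naïve arrays, replicate 2 was far above the others in the score of the pigment cell list, at 1.30, in Tyrp1, at 8.41, and in Tyr, at 7.69. Replicate 5 was far below the other naïve arrays in Adipoq, at 7.12. These values did not follow the hair level, since naïve replicate 1, also hair-high, was low in the pigment genes.

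At 7 days, replicate 2 was far below the other arrays in the mitotic genes Ccnb2, at 7.47, and Cdk1, at 7.51, and far above them in Ccl27, at 9.31. This array also had the lowest mean of Krt25 and Krt71 at that time. Replicate 4 was far below in Krt5, at 12.47, and far above in Grem1, at 5.11, and Thy1, at 10.34. Replicate 5 was far below in Krt10, at 10.19. At 14 days, replicate 5 was far below in Col1a1, at 13.64, and in Krt5, at 12.74. Replicate 4 was far above in Serpinb10, at 6.17, and replicate 1 was far below in Myod1, at 4.96, and far above in Lrat, at 7.47.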

How the results depend on the processing

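The same 2 hair-high and 4 hair-low arrays resulted under all 5 settings of the division, with a gap of 6.81 for Krt25 alone and 5.34 for Krt71 alone in place of 6.08. At a difference of at least 2, 105 genes were higher and 103 lower. Leaving out 1 naïve array at a time gave 412 to 549 higher and 400 to 534 lower genes. List medians then ran from 1.02 to 1.31 for transcription factors, from -0.12 to 0.10 for signals of rest and regression, from 0.23 to 2.66 for pigment cells, from 0.75 to 1.03 for DNA replication and mitosis, and from -1.80 to -0.92 for sarcomere genes. Without naïve replicates 4 and 5 together, the medians were 1.01 for transcription factors, -0.20 for rest and regression, 0.18 for polyamine, arginine and urea cycle enzymes, -0.44 for adipocytes and -0.44 for other leukocytes. With the probeset of the highest mean they were 1.07 for transcription factors, 0.10 for rest and regression and -0.56 for clock genes. From 7 to 14 days, 1882 genes rose and 2523 fell. Subtracting array medians gave 3105 that rose, or 61.4% of calls in place of 42.7%, quantile normalization gave 1670 that fell and a share of 52.0%, leaving out genes of mean under 6 gave 887 that rose, and all 16 arrays in the model gave 1430 that fell. For the genes of the naïve division the latter gave 43 that rose and 18 that fell. Leaving out 1 array gave 1095 (without 14 day replicate 3) to 2189 that rose and 1644 (without 14 day replicate 5) to 2866 that fell, and 150 to 286 and 154 to 297 among the genes of the division. Without 14 day replicate 5, 1231 rose. The replicate block gave 1427 that rose and 2095 that fell. The cause of these shifts was not tested. For named genes, 1178 values of the naïve division moved by less than the standard deviation of the hair-low arrays and 52 by more. No gene called higher or lower changed sign. Tyrp1, Adipoq and Cd68, which overlapped, did so when 1 naïve array was left out, with lowest differences of -0.157, -0.057 and -0.214. For 14 against 7 days 178 calls were lost and 65 gained. Scaling moved the median of all genes by under 0.1.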
